A study of Mus musculus with 8 samples.

Results

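The genes described here encode the hepatic machinery that builds fatty acids and joins them to glycerol as triglyceride. They are the 10 genes Srebf1, Mlxipl, Thrsp, Acly, Fasn, Gpam, Lpin1, Dgat1, Dgat2 and Pnpla3, chosen by name and found in the gene count and FPKM tables by their Ensembl identifiers, out of 35275 genes listed. RNA-seq was performed on whole liver from 8 male mice, labelled C57BL/6 and aged 9 weeks, after a 24 h fast, with 1 library per mouse. The floxed allele was derived from C57BL/6NTac-Pcx Tm1a mice crossed to Flpe deleter mice. In 4 Pcx L-/- mice, a floxed exon 10 of Pcx, which encodes pyruvate carboxylase, was removed by Cre recombinase driven by the Albumin promoter, so that the deletion was directed to hepatocytes, in a tissue that also holds other cells. The 4 controls were Pcx f/f littermates, labelled WT, which carried the same floxed allele and were fasted in the same way. No fed mice are among the samples, so every value below is a fasting value.

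Of the 10 genes, 3 were lower in Pcx L-/- liver by edgeR's quasi-likelihood test, none was higher, 6 did not pass, and Pnpla3 had too few reads to be tested. Srebf1, the gene for the transcription factor SREBP1, was at 38.6% of the Pcx f/f level, Fasn, which encodes fatty acid synthase, was at 51.8%, and Lpin1, which encodes the phosphatidate phosphatase lipin 1, was at 34.6%. At an unadjusted p under 0.05 edgeR likewise gave 3 lower and 0 higher, and DESeq2 called 3 lower and 1, Dgat2, higher. A gene was called where the Benjamini-Hochberg adjusted p was under 0.05. Genome-wide 27.6% of 13168 tested genes were called (13.5% lower and 14.1% higher), so that 3 of 9 lies close to the background. The median log2 fold change of the 9 tested genes was -0.06, against -0.01 over all tested genes.

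After a meal the liver exports citrate from the mitochondria, cleaves it to acetyl-CoA, and builds palmitate from it. SREBP1c, a product of Srebf1 induced by insulin, and ChREBP, the product of Mlxipl activated by glucose metabolites, switch on the genes of this pathway, and fasting lowers its activity. Triglyceride synthesis is a distinct process that also continues in fasting, when fatty acids released by adipose tissue reach the liver: glycerol 3-phosphate is acylated in 2 steps, the phosphate is removed by a lipin, and a diacylglycerol acyltransferase adds the last chain. Pyruvate carboxylase makes oxaloacetate, the partner of acetyl-CoA in citrate formation.

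To show the DNA in front of the genes that were called, and of Mlxipl, the other transcription factor of the pathway, the RefSeq windows on GRCm38.p6 from 250 bases before to 50 bases after each listed transcription start are printed, 5′ to 3′ on the strand of the gene. Capitals mark matches on either strand to any of 5 short motifs. These are the CCAAT box, spelled by its name, the GC box, searched as GGGCGG, and the E-box bound by ChREBP and USF proteins, searched as CACGTG. The TATA box was searched as TATAAA, and the sterol regulatory element bound by SREBPs as TCACNCCAC, where N is any base. Such windows were found for 8 of the 10 genes, all but Dgat1 and Dgat2.
Srebf1 (chr11:60222532-60222831, minus strand): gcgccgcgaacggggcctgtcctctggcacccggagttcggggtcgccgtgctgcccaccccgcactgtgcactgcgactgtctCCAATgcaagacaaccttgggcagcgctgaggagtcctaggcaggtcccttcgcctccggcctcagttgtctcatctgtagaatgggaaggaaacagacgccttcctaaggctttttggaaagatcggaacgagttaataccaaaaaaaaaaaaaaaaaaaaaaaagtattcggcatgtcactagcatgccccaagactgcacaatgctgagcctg
Srebf1 (chr11:60220578-60220877, minus strand): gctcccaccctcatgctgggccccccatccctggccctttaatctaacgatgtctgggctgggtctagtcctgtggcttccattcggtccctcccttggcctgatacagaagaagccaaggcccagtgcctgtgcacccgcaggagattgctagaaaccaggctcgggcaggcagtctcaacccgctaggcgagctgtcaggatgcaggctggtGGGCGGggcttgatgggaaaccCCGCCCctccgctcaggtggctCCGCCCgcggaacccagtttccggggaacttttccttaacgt
Srebf1 (chr11:60210422-60210721, minus strand): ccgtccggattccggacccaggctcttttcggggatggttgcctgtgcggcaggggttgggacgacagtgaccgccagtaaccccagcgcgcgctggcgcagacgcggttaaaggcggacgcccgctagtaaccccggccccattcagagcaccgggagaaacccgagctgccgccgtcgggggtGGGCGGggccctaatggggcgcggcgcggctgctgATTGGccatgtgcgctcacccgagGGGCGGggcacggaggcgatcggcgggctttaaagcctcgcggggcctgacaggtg
Fasn (chr11:120824498-120824797, minus strand): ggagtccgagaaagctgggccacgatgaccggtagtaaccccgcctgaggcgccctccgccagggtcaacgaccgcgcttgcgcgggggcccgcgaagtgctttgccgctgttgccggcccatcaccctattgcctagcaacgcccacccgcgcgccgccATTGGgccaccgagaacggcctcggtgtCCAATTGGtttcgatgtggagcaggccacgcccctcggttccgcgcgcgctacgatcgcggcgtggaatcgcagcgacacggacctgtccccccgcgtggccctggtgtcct
Lpin1 (chr12:16610917-16611216, minus strand): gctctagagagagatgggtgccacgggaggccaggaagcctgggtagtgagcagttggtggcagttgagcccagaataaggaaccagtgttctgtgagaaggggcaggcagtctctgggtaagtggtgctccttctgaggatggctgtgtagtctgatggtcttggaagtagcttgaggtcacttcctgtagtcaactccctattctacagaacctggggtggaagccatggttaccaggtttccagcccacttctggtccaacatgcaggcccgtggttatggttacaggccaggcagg
Mlxipl (chr5:135106641-135106940, plus strand): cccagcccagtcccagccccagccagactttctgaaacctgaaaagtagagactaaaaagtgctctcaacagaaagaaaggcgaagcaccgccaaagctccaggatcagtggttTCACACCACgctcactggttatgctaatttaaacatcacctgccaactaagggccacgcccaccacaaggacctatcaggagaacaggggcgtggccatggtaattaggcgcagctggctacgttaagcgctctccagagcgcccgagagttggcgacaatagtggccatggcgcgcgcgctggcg
Mlxipl (chr5:135089640-135089939, plus strand): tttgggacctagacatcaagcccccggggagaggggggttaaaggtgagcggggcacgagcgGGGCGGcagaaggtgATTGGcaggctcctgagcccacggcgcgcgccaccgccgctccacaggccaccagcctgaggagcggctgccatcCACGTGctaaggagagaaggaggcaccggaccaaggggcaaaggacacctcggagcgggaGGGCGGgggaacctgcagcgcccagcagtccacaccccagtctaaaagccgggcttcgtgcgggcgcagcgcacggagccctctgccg
Srebf1 has 3 listed starts, spread over the gene, and the deposited counts are per gene, so that its SREBP1a and SREBP1c transcripts could not be measured apart. Transcripts from the different listed starts of Mlxipl could not be measured apart either. The Fasn window held 3 CCAAT matches, of which a pair on opposite strands overlap, beginning at base -62 and base -59 from the start. No match to these letters occurred in the Lpin1 window. The letters TCACNCCAC occurred in 1 of the 12 windows of the 10 genes and in 1.24% of all 32851 windows. That match lay 136 bases before the Mlxipl start that 7 of its 10 annotated transcripts share to within 50 bases. The letters CACGTG occurred in the other Mlxipl window alone among the 12, at base -98, and in 7.15% of all windows. Other spellings of the sterol regulatory element and the E-box were not searched, so windows without a match may still hold such sites. CCAAT was present in 8 of the 12 windows and in 37.4% of all windows, and the GC box in 6 of the 12 and in 35.7%. TATAAA was present in none of the 12 and in 13.6% of all.

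The libraries held 12016242 to 20023108 reads assigned to genes. As a check of the labels, Pcx had normalized counts of 19802, 14371, 19513 and 22059 in the Pcx f/f mice and 758, 556, 678 and 732 in the Pcx L-/- mice, a log2 fold change of -4.80 ± 0.19 (SE, adjusted p = 3.66e-07). Normalized counts are read counts scaled by TMM factors to a common library size. Among the knockouts, Pcx L-/- replicate 1 stood apart. Its root mean square distance to the other 3 over tested genes was 0.506 to 0.570 log2 units, against 0.337 to 0.379 among those 3. It lay about as near to Pcx f/f replicates 1 to 3, at 0.539 to 0.547, and 0.708 from Pcx f/f replicate 4. The other 3 Pcx L-/- mice lay 0.701 to 0.885 from the controls. Hemoglobin transcripts took 0.386% of the reads of Pcx L-/- replicate 1, against 0.0216 to 0.102% elsewhere. Pcx f/f replicate 4 lay 0.541 to 0.647 from the other controls, which lay 0.405 to 0.456 from each other. The mouse numbers in the labels fall in the 500s (2 Pcx f/f and 1 Pcx L-/- mice) and the 800s (2 and 3), and what the numbers stand for is not given. The 1 Pcx L-/- mouse in the 500s was replicate 1, the mouse that stood apart. Each Pcx L-/- percentage given below for the 500s therefore rests on that mouse alone. Liver identity was checked by 6 hepatocyte markers, all detected, whose summed normalized counts were 1617210 to 1988690 in Pcx f/f and 922943 to 1410750 in Pcx L-/- mice. Of these 6, 2 were called lower and none higher (4 and 0 at an unadjusted p under 0.05, 4 and 0 by DESeq2). Of all tested genes 13.5% were called lower and 14.1% higher by edgeR. The median log2 fold change of the 6 hepatocyte markers was -0.61. The part of the lower hepatocyte markers in the results below was not tested. In whole liver, fewer cells of a type and less RNA per cell cannot be told apart. Of the 6 adipocyte markers, Lep and Retn had no reads in any library. Adipoq, Plin1 and Cfd did not exceed normalized counts of 3.25, 4.67 and 5.95. The remaining marker, Car3, which hepatocytes also express, had normalized counts of 679 to 7291.

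**Figure D1:**
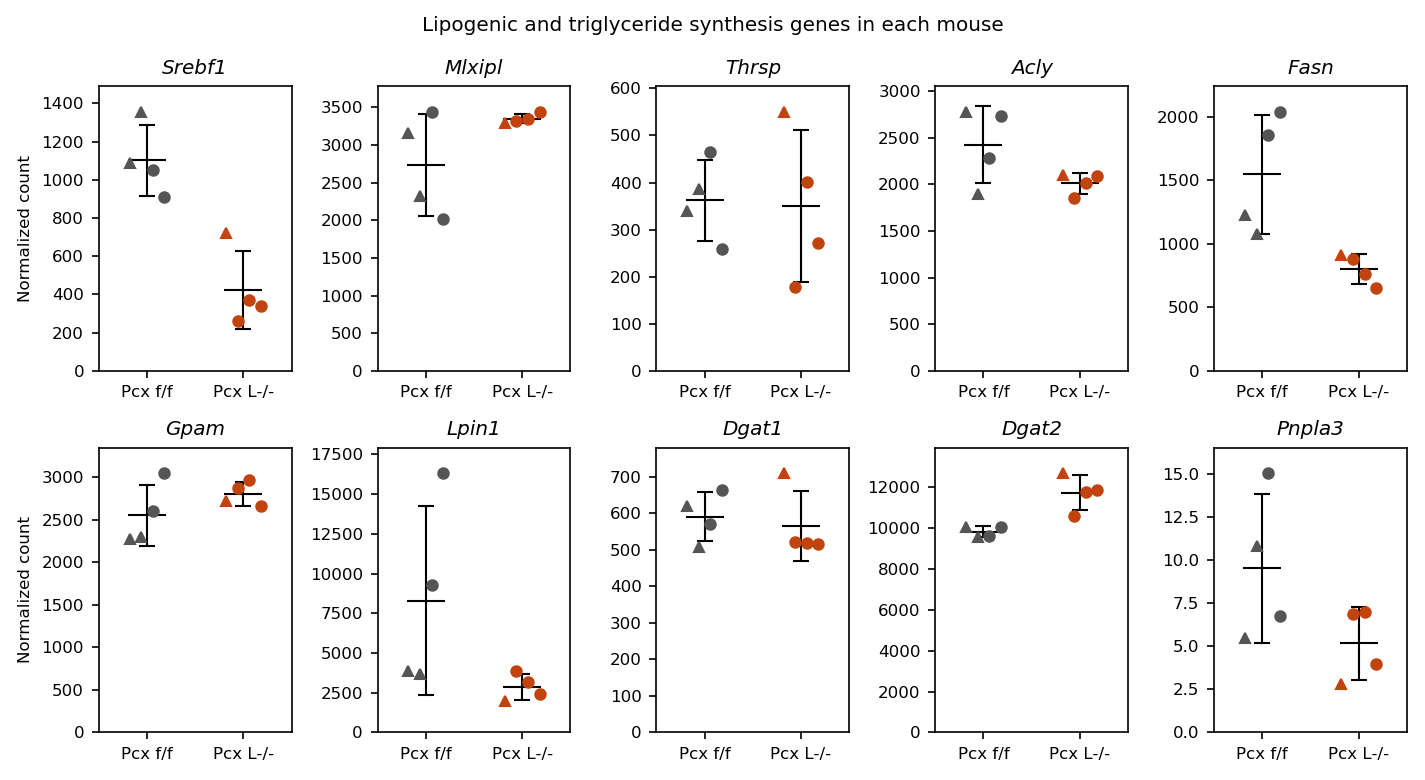
Normalized count of each of the 10 genes (vertical axes from 0, separate scale per gene) in the 4 Pcx f/f and the 4 Pcx L-/- mice. Triangles are mice numbered in the 500s, circles mice numbered in the 800s, horizontal bars means and error bars SD. Srebf1 and Fasn are lower in each Pcx L-/- mouse than in each Pcx f/f mouse, Lpin1 spreads widely among the Pcx f/f mice, and Mlxipl is nearly equal in the 4 Pcx L-/- mice.

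Among the regulators, Srebf1 (ENSMUSG00000020538, chr11:60199089-60222581, minus strand of GRCm38) had normalized counts of 1087, 1356, 1051 and 911 in Pcx f/f replicates 1 to 4. In Pcx L-/- replicates 1 to 4 the counts were 724, 261, 373 and 340.3. The groups did not overlap, and the highest Pcx L-/- value belonged to the mouse that stood apart. Srebf1 fell by 1.38 on the log2 scale (SE 0.27, 95% interval -1.97 to -0.79, adjusted p = 0.00451, n = 4 per genotype, edgeR). Within the mice numbered in the 500s the level of the 1 Pcx L-/- mouse, replicate 1, was 59.3% of Pcx f/f. Within the 800s the level of the 3 Pcx L-/- mice was 33.1%. Without Pcx L-/- replicate 1 the log2 fold change was -1.77. The call held under all 19 alternative fits, including each fit with 1 mouse left out. An exon of Rai1 on the opposite strand and an exon of Mir6922 on the same strand overlap exons of Srebf1, and no source used here states whether the counting used strand, so reads of those stretches cannot be assigned with certainty.

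Mlxipl (ENSMUSG00000005373, chr5:135089890-135138382, plus strand), the ChREBP gene, had normalized counts of 3161, 2321, 3439.5 and 2023 in the Pcx f/f mice. In Pcx L-/- mice they were 3297, 3323, 3350.1 and 3434. On this scale all 4 Pcx L-/- values lay within the upper part of the Pcx f/f range, with a coefficient of variation of 1.77% against 24.6% in controls. In FPKM each Pcx L-/- value (51.7 to 63.2) exceeded each Pcx f/f value (27.3 to 51.3). The difference in spread was not tested. The log2 fold change was 0.29 (SE 0.16, 95% interval -0.06 to 0.65) and did not pass (adjusted p = 0.210). Exons of Gm43500 on the opposite strand overlap Mlxipl.

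The ratio of Srebf1 to Mlxipl reads within each library does not depend on the scaling between libraries. Its log2 value was -1.54, -0.78, -1.71 and -1.15 in the Pcx f/f mice and -2.19, -3.67, -3.16 and -3.33 in the Pcx L-/- mice. Each Pcx L-/- ratio was below each Pcx f/f ratio, with a difference of -1.79 between group means. The two-sided exact permutation p was 0.0286, which is the smallest that 4 against 4 mice allow, and 0.103 after adjustment over 9 pairs. No pair could pass after adjustment unless most of the 9 pairs reached that smallest p. Not passing is therefore uninformative for a single pair, here and below. Srebf1 relative to its paralog Srebf2, the SREBP2 gene of cholesterol synthesis, differed by -0.75 (exact permutation p = 0.114, adjusted 0.147), with Pcx L-/- replicate 1 inside the Pcx f/f range.

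Thrsp (ENSMUSG00000035686, chr7:97412938-97417730, minus strand) encodes Spot 14, a small protein that promotes fatty acid synthesis and responds to thyroid hormone and carbohydrate. Its normalized counts were 339.6, 386, 464 and 259.7 in the Pcx f/f and 550.1, 179, 401 and 272 in the Pcx L-/- mice. The Pcx L-/- mice spread beyond the controls on both sides, with the highest and the lowest of the 8 values. The log2 fold change was -0.06 (SE 0.29, 95% interval -0.70 to 0.59, adjusted p = 0.910). Thrsp was at 152% of the Pcx f/f mean in the only Pcx L-/- mouse of the 500s, replicate 1, and at 78.4% in the 800s. A difference between the mouse numbers thus cannot be told apart from that mouse, and it was not tested. The direction of the Thrsp change also turned with the scaling, as described below. The ratio of Thrsp to its paralog Mid1ip1 differed by -0.21 (exact permutation p = 0.571).

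Of the enzymes of fatty acid synthesis, Acly (ENSMUSG00000020917, chr11:100476353-100528000, minus strand), encoding ATP citrate lyase, which makes cytosolic acetyl-CoA, had normalized counts of 2777, 1899.5, 2288 and 2734 in the Pcx f/f and 2096, 1849, 2010.2 and 2089.7 in the Pcx L-/- mice. Pcx L-/- replicate 2 was the lowest of the 8, and the other 3 Pcx L-/- mice lay between the lowest and the next lowest control. The log2 fold change was -0.27 (SE 0.13, 95% interval -0.56 to 0.02, adjusted p = 0.160). Without Pcx f/f replicate 2, the lowest control, it was -0.37 with an adjusted p of 0.0453.

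Fasn (ENSMUSG00000025153, chr11:120805846-120824547, minus strand), whose product assembles palmitate from acetyl-CoA and malonyl-CoA, had normalized counts of 1228, 1074, 1853 and 2038 in the Pcx f/f mice. Counts in Pcx L-/- mice were 912, 880.1, 764 and 655. The groups did not overlap, and the 2 controls numbered in the 800s were well above the 2 numbered in the 500s. Fasn fell by 0.95 on the log2 scale (SE 0.20, 95% interval -1.39 to -0.50, adjusted p = 0.00669, n = 4 per genotype, edgeR). The Pcx L-/- level was 79.3% of Pcx f/f within the 500s (1 Pcx L-/- mouse, replicate 1) and 39.4% within the 800s (3 Pcx L-/- mice). Of 19 alternative fits 18 kept the call, the exception being limma on log2(FPKM + 1) over all genes above 0 (adjusted p = 0.0637). In FPKM as deposited the groups overlapped, with 7.03, 6.21, 10.5 and 10.4 in Pcx f/f and 5.43, 6.29, 5.42 and 4.57 in Pcx L-/- mice. The log2 ratio of Fasn to Acly differed by -0.65 (exact permutation p = 0.0571, adjusted 0.103), so that an unequal change of the 2 genes was not established.

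The first step of glycerolipid synthesis in mitochondria is carried out by the acyltransferase GPAT1, encoded by Gpam (ENSMUSG00000024978, chr19:55067268-55127238, minus strand). Its normalized counts were 2277, 2299, 2598 and 3045 in the Pcx f/f and 2717, 2876, 2965 and 2663 in the Pcx L-/- mice, and the Pcx L-/- values lay within the control range. The log2 fold change was 0.14 (SE 0.12, 95% interval -0.13 to 0.40, adjusted p = 0.439). Gpat4, the main glycerol phosphate acyltransferase of the endoplasmic reticulum, was called lower at -1.05 (SE 0.30, adjusted p = 0.0250). That call held in 13 of 19 alternatives and was lost without Pcx f/f replicate 1 or 4 or Pcx L-/- replicate 2, 3 or 4 (adjusted p up to 0.0812). The remaining loss was in a fit of another kind. The log2 ratio of Gpam to Gpat4 was -1.20, -0.58, -0.88 and -1.26 in the Pcx f/f mice and -0.67, 0.65, 0.61 and 0.47 in the Pcx L-/- mice. Pcx L-/- replicate 1 fell inside the Pcx f/f range and the other 3 above it, for a difference of 1.24 (exact permutation p = 0.0571, adjusted 0.103).

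Lpin1 (ENSMUSG00000020593, chr12:16535669-16610966, minus strand), whose product converts phosphatidate to diacylglycerol and also acts with nuclear receptors as a coactivator in fasting, had the widest spread among the controls of the 9 tested genes. Its normalized counts were 3854, 3678, 9261 and 16309 in the Pcx f/f mice and 1976, 3867, 3179 and 2430.0 in the Pcx L-/- mice. The difference was carried by Pcx f/f replicates 3 and 4, both numbered in the 800s, while Pcx L-/- replicate 2 exceeded Pcx f/f replicates 1 and 2. The coefficient of variation was 71.9% in Pcx f/f and 29.1% in Pcx L-/- liver. Lpin1 fell by 1.53 on the log2 scale (SE 0.43, 95% interval -2.48 to -0.58, adjusted p = 0.0234, edgeR). The call held in 12 of 19 alternative fits, over which the adjusted p was 0.000279 to 0.185. Leaving out Pcx f/f replicate 4 gave a log2 fold change of -0.97 and an adjusted p of 0.0555, and leaving out Pcx f/f replicate 3 gave -1.47 and 0.0562. The call was also lost when Pcx L-/- replicate 3 (log2 fold change -1.58, adjusted p = 0.0521) or replicate 4 (-1.46, adjusted p = 0.0730) was dropped, and in the 3 limma fits on FPKM (-1.01 to -0.99, adjusted p 0.0850 to 0.185). The Pcx L-/- level was 52.5% of Pcx f/f within the 500s (1 Pcx L-/- mouse, replicate 1) and 24.7% within the 800s (3 Pcx L-/- mice). Lpin2, the other lipin abundant in liver, was also called lower, at -0.79 (SE 0.21, adjusted p = 0.0188), and the ratio of Lpin1 to Lpin2 differed by -0.50 (exact permutation p = 0.343).

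The last acylation is carried out by 2 unrelated enzymes of the endoplasmic reticulum. Dgat1 (ENSMUSG00000022555, chr15:76502015-76511953, minus strand) had normalized counts of 619, 508, 571 and 664 in the Pcx f/f and 709, 519.8, 518 and 515 in the Pcx L-/- mice. In the Pcx L-/- group 3 mice were nearly identical and replicate 1 was the highest of all 8. The log2 fold change was -0.06 (SE 0.13, 95% interval -0.36 to 0.23, adjusted p = 0.772). Dgat2 (ENSMUSG00000030747, chr7:99153658-99182719, minus strand), the enzyme linked to triglyceride made from newly synthesized fatty acids, had 10068, 9561, 9605 and 10044 in the Pcx f/f and 12679, 10594, 11766 and 11881 in the Pcx L-/- mice. Each Pcx L-/- value exceeded each Pcx f/f value, and the controls differed from each other by a coefficient of variation of only 2.79%. The log2 fold change of 0.26 (SE 0.12, 95% interval -0.00168 to 0.51) did not pass in edgeR (adjusted p = 0.130) and passed in DESeq2 (adjusted p = 0.0303). Together with Srebf1 and Fasn, Dgat2 made 3 of the 9 tested genes whose normalized counts did not overlap between genotypes, where 27.6% of all tested genes did not, 12.5% being lower and 15.1% higher in Pcx L-/- liver. The log2 ratio of Dgat2 to Dgat1 was 4.02, 4.23, 4.07 and 3.92 in the Pcx f/f and 4.16, 4.35, 4.50 and 4.53 in the Pcx L-/- mice, a difference of 0.32 (exact permutation p = 0.0571, adjusted 0.103).

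Pnpla3 (ENSMUSG00000041653, chr15:84167837-84187236, plus strand), encoding a lipid droplet protein of the patatin-like phospholipase family, was close to the limit of these libraries. Its reads numbered 6, 10, 14 and 4 in the 4 Pcx f/f libraries and 3, 9, 9 and 4 in the 4 Pcx L-/- libraries, and it did not pass the filter on low counts. The groups overlapped. Fitted without the filter, its log2 fold change was -0.84 (SE 0.51, adjusted p = 0.335), and a difference was not detectable at this depth. Exons of Gm49513 on the same strand overlap Pnpla3.

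**Figure D2:**
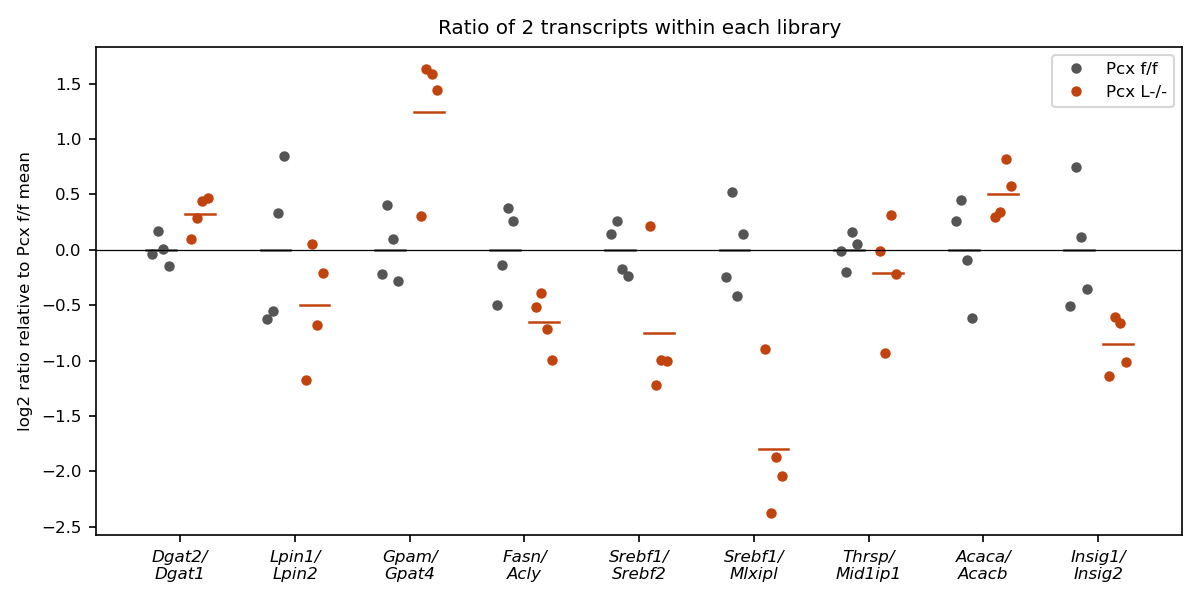
Log2 ratio of the reads of 2 genes within each library, minus the Pcx f/f mean of that ratio, for 9 pairs. Points are mice and bars are group means. The Srebf1/Mlxipl and Insig1/Insig2 ratios do not overlap between genotypes, and none of the 9 pairs passes after adjustment. With so few mice a fully separated pair could not pass unless most of the 9 pairs were fully separated.

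The scaling between libraries decided part of this picture. TMM factors were 0.833 to 0.942 in Pcx f/f and 0.970 to 1.16 in Pcx L-/- libraries, and albumin alone took 6.29 to 7.003% of reads in Pcx f/f and 4.73 to 5.82% in Pcx L-/- libraries. When libraries were scaled by total reads only, the median log2 fold change of all tested genes moved from -0.01 to 0.28, and 81.8% of the called genes were higher, against 51.1% with TMM. Under that scaling Dgat2 (0.54, adjusted p = 0.00262), Gpam (0.43, adjusted p = 0.0156) and Mlxipl (0.57, adjusted p = 0.0256) were called higher, and Srebf1 (-1.14), Fasn (-0.65) and Lpin1 (-1.18) stayed lower. Acly (0.02), Thrsp (0.19) and Dgat1 (0.21) changed sign without passing. Relative to the shift of all genes, Dgat2, Gpam and Mlxipl were thus 0.26, 0.15 and 0.29 higher. FPKM values carry this scaling. In FPKM, Mlxipl, Gpam, Dgat1 and Dgat2 did not overlap between genotypes, each higher in Pcx L-/- liver, and Srebf1 did not overlap in the other direction. Of all tested genes 27% were higher and 5.49% lower in FPKM without overlap.

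**Figure D3:**
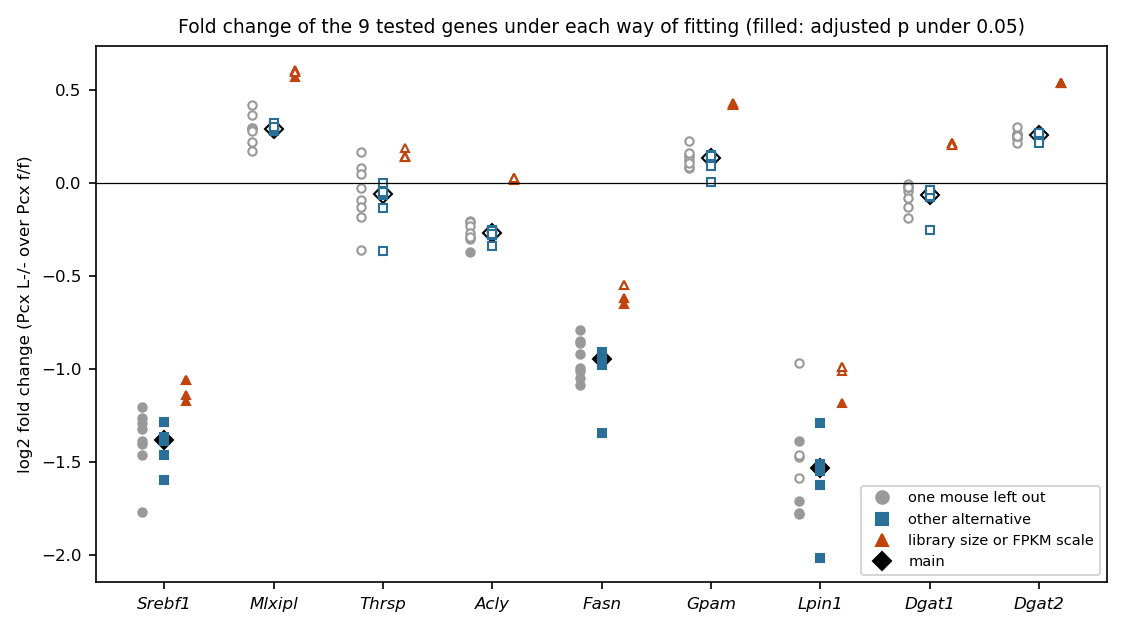
Log2 fold change, Pcx L-/- over Pcx f/f, of the 9 tested genes in the reported fit (diamonds), with 1 mouse left out (grey circles), under other settings (squares) and on library size or FPKM scales (triangles). Filled symbols passed at an adjusted p under 0.05. Srebf1 is filled throughout, Fasn in all but 1 alternative, and Lpin1 in 12 of 19, while the triangles sit above all other symbols except for Thrsp and Lpin1, in which a fit with 1 mouse left out lies as high.

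Levels were compared between genes per length, in FPKM. In Pcx f/f liver Dgat2 was highest at 233 ± 11.02 FPKM (SD, n = 4), followed by Lpin1 at 76.3 ± 50.4, Mlxipl at 40.4 ± 11.1, Gpam at 35.4 ± 3.00 and Acly at 29.1 ± 4.44. Dgat1 at 16.6 ± 1.31, Thrsp at 15.3 ± 4.10, Srebf1 at 13.8 ± 2.91 and Fasn at 8.54 ± 2.24 followed, and Pnpla3 was lowest at 0.110 ± 0.0524. In this order the ranges of neighbours were separate between Dgat2 and Lpin1, between Acly and Dgat1, and between Fasn and Pnpla3, and overlapped elsewhere. In Pcx L-/- liver the order was Dgat2 at 338 ± 18.7, Mlxipl at 60.0 ± 5.54, Gpam at 47.7 ± 5.54, Lpin1 at 33.6 ± 11.7, Acly at 29.5 ± 2.09, Dgat1 at 19.3 ± 1.44, Thrsp at 17.4 ± 6.79, Srebf1 at 6.24 ± 2.36, Fasn at 5.43 ± 0.703 and Pnpla3 at 0.0740 ± 0.0336. Lpin1 ranked below Mlxipl and Gpam here and above them in Pcx f/f liver, and the ranges of neighbours were separate between Dgat2 and Mlxipl, Acly and Dgat1, and Fasn and Pnpla3.

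**Figure D4:**
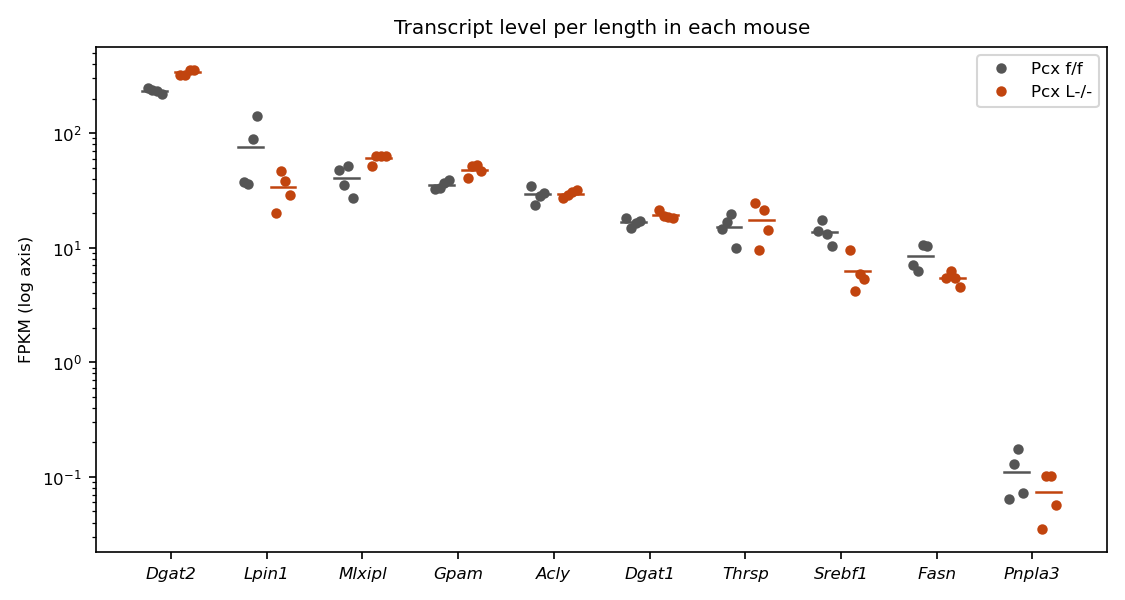
FPKM on a log axis of the 10 genes in each Pcx f/f and Pcx L-/- mouse, ordered by the Pcx f/f mean. Points are mice and bars are means. Dgat2 is highest and Pnpla3 lowest in both genotypes, from 233 to 0.110 FPKM in Pcx f/f liver.

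The other genes of these pathways were read from 3 lists. Of 14 further genes of fatty acid synthesis, 4 were called higher and 3 lower, with a median log2 fold change of -0.05, where 14.1% of all tested genes were called higher and 13.5% lower. The same shares apply to the lists that follow. The higher genes were Pgd (0.92, SE 0.18) and Me1 (0.73, SE 0.17), which supply NADPH, Pklr (0.84, SE 0.25), the liver pyruvate kinase of glycolysis, and Elovl6 (0.59, SE 0.15), which elongates palmitate. The lower genes were Acss2 (-0.89, SE 0.18), which activates acetate, Scd1 (-0.57, SE 0.19), which desaturates stearate, and Slc25a1 (-0.37, SE 0.12), the mitochondrial citrate carrier. Acaca and Acacb, the acetyl-CoA carboxylases that make malonyl-CoA, did not pass, at 0.01 and -0.66. In the controls Acacb had 711, 557, 1087 and 2228, so that, as with Fasn and Lpin1, Pcx f/f replicates 4 and 3 were its highest and next highest values. Over the 19 alternatives Pgd, Me1 and Acss2 kept their calls in all, Elovl6 in 18, Pklr in 11, Scd1 in 7 and Slc25a1 in 5. Pklr lost its call with the mouse-number series as a term and without Pcx f/f replicate 1, 2 or 3 or Pcx L-/- replicate 2, 3 or 4 (adjusted p up to 0.0891), and the count of higher genes was then 3. The count of lower genes was 1 to 5 when 1 mouse was left out, with 5 without Pcx L-/- replicate 1 and 1 without Pcx f/f replicate 2 or 3 or without Pcx L-/- replicate 2, 3 or 4. Over all tested genes lower calls numbered 2370 without Pcx L-/- replicate 1, against 1777 in the reported fit. They numbered 1571 and 1239 without Pcx f/f replicates 2 and 3, and 1043, 1097 and 953 without Pcx L-/- replicates 2, 3 and 4.

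Of 18 further genes of glycerolipid synthesis, 17 were tested, 2 were called higher and 4 lower, with a median of -0.06. Acsl4 (1.79, SE 0.23, adjusted p = 0.000820), an acyl-CoA synthetase for arachidonate that the study itself singled out in these mice and that is therefore no independent evidence, and Agpat5 (1.07, SE 0.13, adjusted p = 0.000735), of the family that makes phosphatidate, were higher. Acsl1 (-1.01, SE 0.22), the main long-chain acyl-CoA synthetase of liver, whose product is also oxidized, Gpd1 (-0.93, SE 0.18), the cytosolic glycerol 3-phosphate dehydrogenase, Gpat4 and Lpin2 were lower. Gpat3 (0.79, SE 0.29, adjusted p = 0.0595) did not pass. Acsl4, Agpat5, Acsl1 and Gpd1 kept their calls in all 19 alternatives and Lpin2 in 12. Lpin2 lost its call without Pcx f/f replicate 3 or Pcx L-/- replicate 2 or 4, and kept it in the other 5 fits with 1 mouse left out. Its remaining losses were in fits of other kinds. Over all 19 alternatives its log2 fold change was -1.08 to -0.49, with an adjusted p up to 0.113. The count of higher genes was 4 without Pcx L-/- replicate 2, and the count of lower genes was 2 without Pcx L-/- replicate 2 or 4. Over all tested genes, higher calls numbered 1252 without Pcx L-/- replicate 2, against 1855 in the reported fit. Lower calls over all tested genes numbered 1043 and 953 without Pcx L-/- replicates 2 and 4, against 1777.

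Of 19 regulators, 2 were called higher and 5 lower, with a median of -0.22. Insig1 (-1.17, SE 0.23), whose product holds SREBPs in the endoplasmic reticulum and whose transcription SREBPs induce, Srebf2 (-0.72, SE 0.11), Arrdc4 (-0.69, SE 0.15), a target of ChREBP, Scap (-0.62, SE 0.17), the escort of SREBPs, and Usf2 (-0.56, SE 0.14), an E-box factor, were lower. Pparg (0.76, SE 0.16), a nuclear receptor of lipid storage, and Mbtps2 (0.49, SE 0.14), the second of the proteases that release SREBPs, were higher. Mlx, the partner of ChREBP, did not pass (0.28, adjusted p = 0.0713). The ratio of Insig1 to Insig2 was lower in each Pcx L-/- mouse than in each Pcx f/f mouse, by -0.85 between means (exact permutation p = 0.0286, adjusted 0.103), and that of Acaca to Acacb differed by 0.51 (exact permutation p = 0.114). Insig1 and Pparg kept their calls in all 19 alternatives, Srebf2 in 18, Arrdc4 in 16, Usf2 in 14, and Scap and Mbtps2 in 12. The count of lower regulators was 8 without Pcx L-/- replicate 1 and 3 without Pcx L-/- replicate 4, and that of higher ones was 1 without any of Pcx f/f replicates 1, 2 and 3 or Pcx L-/- replicates 3 and 4.

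**Figure D5:**
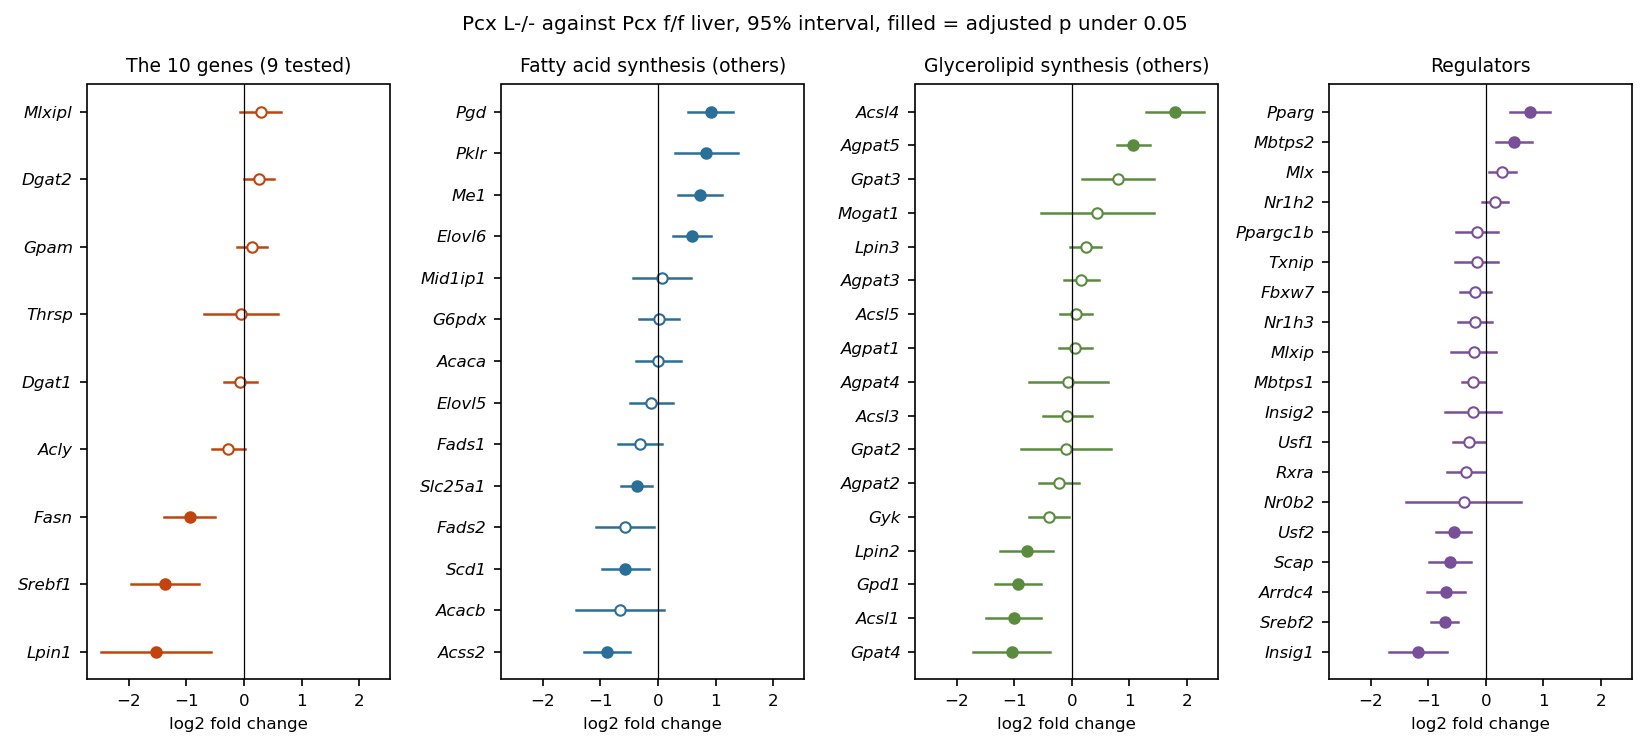
Log2 fold change, Pcx L-/- over Pcx f/f, with 95% interval for the 9 tested genes of the 10 and for the tested genes of 3 wider lists. Filled circles passed at an adjusted p under 0.05. Lpin1, Srebf1 and Fasn are the filled genes of the first panel, all below 0, while each wider list holds filled genes on both sides of 0.

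The genes whose pattern over the 8 libraries was most like that of Srebf1, by the root mean square difference of the log2 deviations from each gene's mean, were Gm4951 (0.0826), Akr1c14 (0.0877) and Rnf152 (0.109). For Fasn they were Usf3 (0.123), Dcun1d3 (0.131) and Myo1e (0.139), and for Mlxipl Bloc1s4 (0.0758), Ankra2 (0.0855) and Ccnl2 (0.0884). None of these 9 genes is in the 3 lists above.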

How the data were processed

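Whole liver RNA of 4 Pcx L-/- and 4 Pcx f/f mice was sequenced. The authors aligned the reads to mm10, and the submitters' processing notes name STAR 2.5, HTSeq 0.6.1 and DESeq2, without roles; no source used here states the strand setting or the annotation release. The deposited counts are whole reads per gene, not normalized. The deposited FPKM values were computed by the authors per library total and gene length. From the counts, filterByExpr (minimum count 10) kept 13168 genes, and genotype was tested with TMM factors and edgeR 4.0.16 quasi-likelihood fits in R 4.3.3, adjusted over all of them. DESeq2 1.42.0 and limma 3.58.1 on log2(FPKM + 1) and log2(FPKM + 0.1) were alternatives, with RLE or library size scaling, no or a stricter filter (50 reads in 4 libraries), a replicate block, the mouse-number series, and each mouse left out; a fit on the mice numbered in the 800s was added after seeing the data. Ratios used counts plus 0.5 and exact permutation tests. On simulated data edgeR recovered 67.9% of 196 genes changed 2-fold among 12972 and called 15 unchanged ones. As a share of the calls made, those 15 exceeded what an adjusted p under 0.05 is meant to allow. Residual degrees of freedom were 6.

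The genes named were the 10 genes, Pcx, the 3 highest and the 3 lowest of each wider list, both genes of each pair, and the 3 genes nearest to Fasn, Srebf1 and Mlxipl. Slc25a1, Elovl6, Scap and Usf2 were named after their values were seen. The 10 genes and the lists were chosen with earlier results of these data known. Gene positions come from GENCODE on GRCm38, and promoter windows from RefSeq on GRCm38.p6. The symbol Gyk was matched to Gk. The list of marker genes covered hepatocytes, adipocytes, macrophages, endothelial, stellate, bile duct and red blood cells.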

Additional observations from a re-analysis of the deposited data

Results flagged for a closer look

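In groups of 4 mice, a value was noted where its gap to the nearest other mouse, divided by the range of the group, exceeded Dixon's 95% critical value for 4 samples. This occurred in 6 of 92 groups examined, and chance alone gives about 1 in 20. Among the 10 genes it was met by Dgat1 in Pcx L-/- replicate 1, whose normalized count of 709 lay above the other 3 at 515 to 519.8 (0.975 of the range). Pcx L-/- replicate 1 was also the high value of Gpat4 (4323 against 1830 to 1940.2, 0.956 of the range), Acsl1 (19066 against 9922 to 10877, 0.896) and Mid1ip1 (189 against 107 to 116, 0.891). Acsl4 was high in Pcx f/f replicate 4 (1527 against 900 to 940, 0.935). Mlx was low in Pcx L-/- replicate 2 (409 against 508 to 525, 0.852).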

How the results depend on the processing

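Srebf1 kept its call under all 19 alternatives and Fasn under 18. With 1 mouse left out, 2 to 4 of the 10 genes were called lower and 0 to 0 higher. The 4 were called without Pcx f/f replicate 2, which added Acly. Over all tested genes, fits with 1 mouse left out called 953 to 2370 lower and 1156 to 2232 higher. The reported fit called 1777 lower and 1855 higher, and the mice numbered in the 800s gave 2129 and 1887. List counts with mice left out, given below, stand beside these numbers. Called higher were 3 with library size only and with limma on log2(FPKM + 1) or log2(FPKM + 0.1), 2 with limma over all genes above 0, and 1 with DESeq2; called lower was 1 with limma over all genes above 0. Under these scalings by library total 81.8 to 83.4% of the called genes were higher. In the fatty acid synthesis list the lower count was 1 with library size only, each limma fit, the replicate block and the mouse-number series, 5 in the mice numbered in the 800s, and 1 to 5 with 1 mouse left out. In the glycerolipid list the higher count was 6 with library size only, 4 with DESeq2, 4 without the filter, 5 with limma on either pseudocount, 6 with limma over all genes above 0, and 2 to 4 with 1 mouse left out; the lower count was 2 with limma over all genes above 0 and 2 to 6 with 1 mouse left out. Among regulators the higher count was 4 with library size only and each limma fit, 1 in the mice numbered in the 800s, and 1 to 2 with 1 mouse left out; the lower count was 3 with library size only, 2 with limma on either pseudocount, 1 with limma over all genes above 0, 8 in the 800s, and 3 to 8 with 1 mouse left out. The cause of these shifts was not tested.

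Signs turned only for genes that did not pass. With library size only, limma with pseudocount 1, limma with 0.1 and limma over all genes above 0, the log2 fold change was 0.19, 0.14, 0.14 and 0.14 for Thrsp, 0.0195, 0.0281, 0.0292 and 0.0281 for Acly, and 0.21, 0.20, 0.21 and 0.20 for Dgat1. Thrsp was 0.000355 with the mouse-number series, and -0.36 to 0.17 with 1 mouse left out. Acaca was -0.00511 with RLE factors, -0.00457 with DESeq2, -0.0755 with the mouse-number series, -0.22 in the 800s, and -0.11 to 0.22 with 1 mouse left out. Mid1ip1 was -0.0475 in the 800s and -0.16 to 0.18 with 1 mouse left out. Insig2 was 0.0298 with library size only.

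Samples that share a replicate number did not deviate together (correlations -0.13 to 0.10 over 4 numbers, own number best for 1), so the replicate block pairs nothing known. With it 3 of the 10 genes were called lower and 0 higher, with Srebf1 at -1.46, Fasn at -0.91 and Lpin1 at -1.29, and 2975 genes in all against 3632. For the pair ratios 4 pairs allow a sign-flip p of 0.125 at the least. Low reads kept Pnpla3 from being tested.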

Other observations

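Markers of the other liver cells gave no call in the 5 endothelial, 5 stellate and 5 red blood cell genes by edgeR, with medians of -0.17, 0.07 and 1.29. The red blood cell median rests largely on 1 mouse, and 1 of those 5 genes was below 0. Hemoglobin transcripts took 0.386% of reads in Pcx L-/- replicate 1, against 0.0216 to 0.102% in the other libraries. At an unadjusted p under 0.05, 2 endothelial genes were lower and 0 stellate or red blood cell genes differed, and DESeq2 called 0 genes of these 3 lists. By edgeR 14.1% of all tested genes were called higher and 13.5% lower, which is the background for these counts and those that follow. Of 6 macrophage markers, Cd68 was higher (0.86, adjusted p = 0.0289), and the median was 0.04. Of 5 bile duct markers, Sox9 was lower (-0.79, adjusted p = 0.0226), and the median was -0.47. Of 6 adipocyte markers, 5 were too low to test, and Car3, which hepatocytes also express, was lower (-1.81, adjusted p = 0.0238). These 3 genes are named after their values were seen.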
